A study of Mus musculus with 12 samples.

Results

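The genes of the cytosolic ribosome's proteins were examined in hearts of mice with and without carbon tetrachloride. They were taken by symbol, as the Rpl and Rps genes with a number and the genes Rplp0, Rplp1, Rplp2 and Rpsa, when they reached 0.5 RPKM (reads per kilobase of exon, scaled to the library's total) in at least 6 of 12 hearts. The symbol rule found 87 genes and 86 of them met that level, out of 14087 genes that did so among 31722 symbols. The gene left out was Rpl39l, a paralogue of Rpl39, which did not exceed 0.107 RPKM in any heart. The subunit was read from the symbol, which puts 50 of the 86 genes in the large subunit and 36 in the small subunit. For Rpl6l, Rps3a2, Rps3a3, Rps4l and Rps12l1 no protein-coding transcript was found in the annotation used, so they are counted by name only. The relative Rpl7l1 is counted with the large subunit in the same way.

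Messenger RNA was sequenced from heart tissue of C57BL/6J mice, 6 in a Control group and 6 in a group that received carbon tetrachloride (CCl4), a liver toxin given to rodents to model cirrhosis. The comparison addresses how liver cirrhosis bears on the heart. The labels give no dose, duration, sex, age or vehicle, and do not say which part of the heart was taken. The relative depth of the libraries, in steps of the RPKM scale, ran from 26345200 (Control replicate 6) to 63365300 (CCl4 replicate 4).

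Each ribosome is built from ribosomal RNA and one copy of most of these proteins, so the genes are usually transcribed together and at high levels in every tissue. Their messenger RNAs typically begin with a C followed by an unbroken run of pyrimidines, the terminal oligopyrimidine (TOP) motif, through which mTORC1 and LARP1 set how much of the message is translated. That control acts on translation and need not change the amount of the message. Heart and skeletal muscle differ from other tissues in one subunit: they carry Rpl3l, a striated muscle paralogue of Rpl3, whose product takes the place of RPL3 in a share of their ribosomes.

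The marker genes of other cell types differed between libraries. The summed RPKM of 8 cardiomyocyte markers, among them Myh6 and Myl2, was 27198 to 34139 in Control hearts. It was 26634 to 29088 in 5 of the CCl4 hearts, but 18771 in CCl4 replicate 3. Myl2 was lower in Control replicate 1 (1312 RPKM) than in CCl4 replicate 3 (1344 RPKM), while Myh6, Tnnt2 and Actn2 were lowest in CCl4 replicate 3. That heart also had the highest sum of 7 fibroblast markers (593 RPKM, against 88.8 to 239 in Control hearts) and of 10 leukocyte markers (189 RPKM, against 42.6 to 63.3). All 7 fibroblast markers, all 6 tested leukocyte markers and all 5 tested red cell markers had a mean above that of Control, and all 7 endothelial and all 7 smooth muscle and pericyte markers a mean below it. All 7 endothelial and all 5 red cell markers had an unadjusted p under 0.05, where 10.2% of all genes did, and no marker passed an adjusted p of 0.05 (limma). The endothelial sums of the groups did not overlap, at 301 to 385 RPKM in Control and 228 to 290 RPKM in CCl4 hearts. Among single genes, 0.76% of all those tested had groups without overlap. The sum of atrial markers varied within both groups, from 608 RPKM in Control replicate 6 to 15078 in Control replicate 1. Most of that sum was Nppa, and the atrial marker Myl7 did not follow it in every heart. Nppa was at 14184 RPKM in Control replicate 1, 9552 in CCl4 replicate 3 and 6675 in CCl4 replicate 6. Myl7 was at 419, 28.7 and 0.811 RPKM in the same hearts. In bulk tissue, fewer cells of a type and less RNA per cell cannot be told apart, and the part of cell makeup in the results below was not tested.

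The coding sequences of Rpl3 and Rpl3l are shown first because the results turn on reads being assigned to the right one of them. On GRCm38, Rpl3 lies on chromosome 15 (80077791 to 80091868, minus strand) and Rpl3l on chromosome 17 (24727820 to 24736143, plus strand), in the GENCODE M21 annotation. The start of each coding sequence is printed 5′ to 3′ from the A of the start codon, with bases that differ between them in capitals.
Rpl3: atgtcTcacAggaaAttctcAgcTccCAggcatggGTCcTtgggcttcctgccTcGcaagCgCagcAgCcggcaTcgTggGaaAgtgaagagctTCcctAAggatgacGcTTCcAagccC
Rpl3l: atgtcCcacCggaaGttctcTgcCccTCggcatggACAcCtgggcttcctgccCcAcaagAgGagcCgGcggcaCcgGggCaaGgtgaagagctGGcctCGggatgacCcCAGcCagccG
The stretches differ at 31 bases. Over the whole coding sequence (1212 bases in Rpl3, 1224 in Rpl3l), 897 of 1209 aligned bases were identical (74.2%), and the longest identical run was 22 bases. No stretch of 50 bases was shared between the transcripts, so reads of that length or longer from either gene differ from the other. The same was true of Rpl22l1 and Rpl22, Rps27l and Rps27, Rpl7l1 and Rpl7, and Rps4l and Rps4x. By contrast Rps12l1 shared 100% of its 50-base stretches with Rps12, Rps3a2 shared 76.7% and Rps3a3 49.6% with Rps3a1, and Rpl6l shared 61.8% with Rpl6, and the values of these 4 copies are uncertain.

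The starts of several genes are printed because the pyrimidine run is the feature by which the cell controls these messages as a group. RefSeq promoters of GRCm38.p6 matched 61 of the 86 genes. In the 30 bases around each annotated start (15 before and 15 from it on, 5′ to 3′), capitals mark a C followed by at least 5 more C or T that begins within 5 bases of the start.
Rps6 (chr4:86857353-86857382, minus): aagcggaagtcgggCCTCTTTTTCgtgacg
Rps24 (chr14:24490663-24490692, plus): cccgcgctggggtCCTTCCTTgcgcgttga
Rps24, second start (chr14:24490738-24490767, plus): tccggcgccgtagccatcatggtgagtctc
Rps10 (chr17:27635230-27635259, minus): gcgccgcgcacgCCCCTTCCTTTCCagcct
Rpl28 (chr7:4792950-4792979, plus): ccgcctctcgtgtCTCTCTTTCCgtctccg
Rpl35 (chr2:39005117-39005146, minus): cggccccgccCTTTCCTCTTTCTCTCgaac
Rpl38 (chr11:114668565-114668594, plus): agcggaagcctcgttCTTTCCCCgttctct
Rpl22l1 (chr3:28805493-28805522, plus): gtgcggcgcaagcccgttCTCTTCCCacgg
Rpl3l (chr17:24727811-24727840, plus): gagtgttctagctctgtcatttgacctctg
Rpl7l1 (chr17:46782642-46782671, minus): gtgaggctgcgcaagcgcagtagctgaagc
Rps6, Rps10, Rpl28, Rpl35 and Rpl38 hold the run, Rps24 holds it at one of its annotated starts, and so does the paralogue Rpl22l1. The Rpl7l1 start and both annotated starts of Rpl3l do not. Across the 61 genes, 26 (42.6%) had such a run on the gene's own strand at one of their starts, against 3229 of 27025 genes in the table (11.9%). Of short words searched on both strands in the 250 bases before the start, CCGGAAG stood in 29.5% of these genes and 7.83% of all genes, AAGATGG in 8.20% and 5.18%, TATAAA in 6.56% and 14.3%, and CANNTG in 47.5% and 69.3%. A match is a description of the letters and not a binding site, and annotated starts can differ from those used in the heart.

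The 86 genes spanned a wide range of levels. By mean RPKM over 12 hearts, Rps24 was highest at 779 and Rps12l1 lowest at 0.678, with a median of 61.7 and the middle of the distribution between 18.9 and 137. After Rps24 came Rpl23a (550 RPKM), Rpl19, Rpl26 and Rps23, while 8 genes were under 10 RPKM and 28 at 100 RPKM or more. Rps24 had 789, 808, 715.5, 807, 802 and 832 RPKM in Control replicates 1 to 6 and 794, 765, 829, 699, 706 and 803 RPKM in CCl4 replicates 1 to 6, and these groups overlapped. RPKM divides by all annotated exon bases of a gene, and for these short genes that length is often larger than the message. For the 81 genes with a principal transcript the exon length was a median of 2.01 times that transcript, and at least 3 times in 17 genes. Rps19, a subunit whose gene is mutated in Diamond-Blackfan anaemia, was at 14.2 RPKM with a length ratio of 6.05, and at 85.9 when divided by its principal transcript instead. On that length the levels ran from 4.999 (Rpl22l1) to 3022 (Rps24), with a median of 126, and the ratio of the 90th to the 10th percentile went from 21.7 to 12.5. The level and the length ratio had a Spearman's rho of -0.409 across these genes, which are not independent of each other. Exons of another gene overlapped 39 of the 86 genes (27 on the same strand), and 56 had a named pseudogene in the table, 219 in all.

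**Figure D1:**
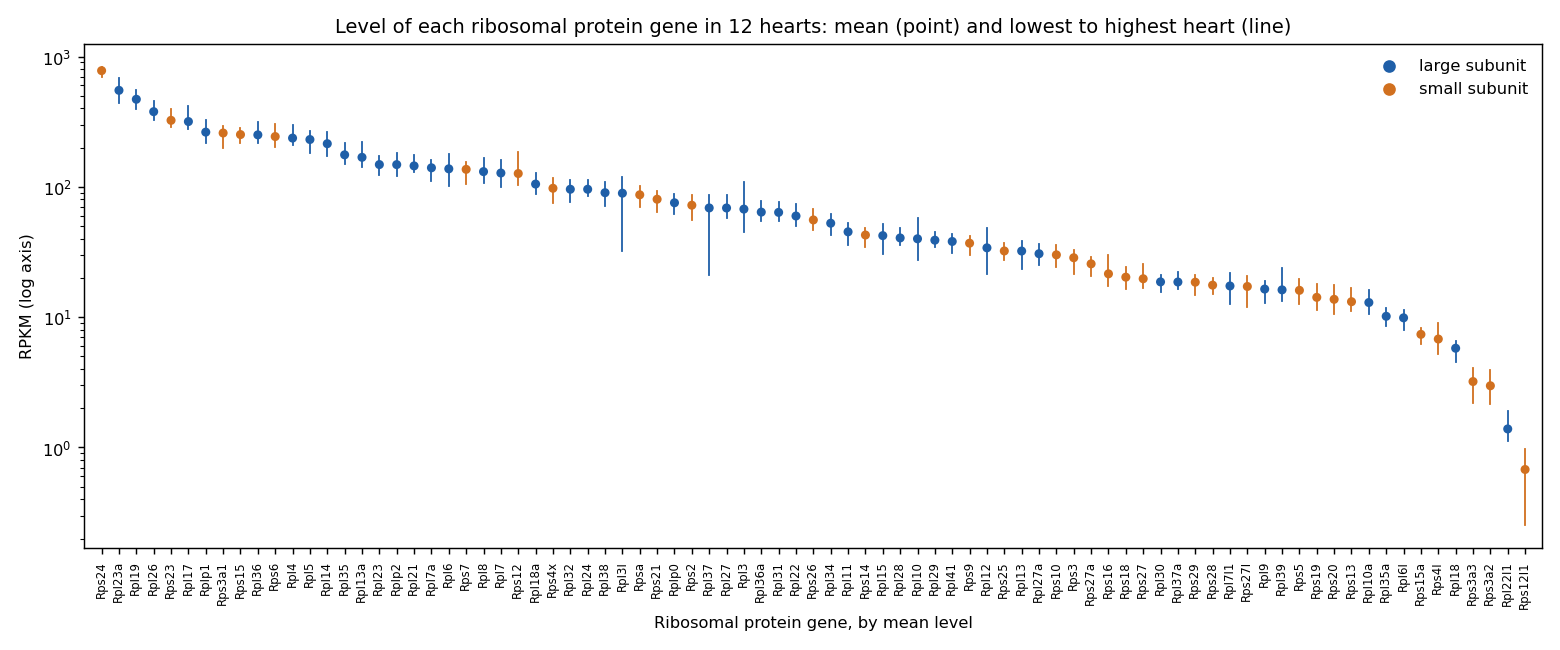
Mean RPKM of 83 of the 86 ribosomal protein genes over 12 hearts (points, log axis) with the lowest and highest heart (lines), coloured by subunit. Levels run from 0.678 (Rps12l1) to 779 RPKM (Rps24), and Rpl3l and Rpl37 have the lines that reach farthest below their mean among genes of their level.

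No ribosomal protein gene passed the test between CCl4 and Control hearts when all hearts were weighted equally. At an adjusted p under 0.05 (limma on log2(RPKM + 1), Benjamini-Hochberg over all 14087 genes), 0 of 86 were higher and 0 lower, and 0% of all genes were higher and 0% lower. The smallest adjusted p was 0.432, for Rpl27. At an unadjusted p under 0.05 there were 2 of 86, both lower, against 10.2% of all genes in either direction (8.58% lower and 1.6% higher), a share below that of all genes in this fit. The groups overlapped in all 86 genes, where 0.76% of all genes had groups without overlap. Log2 fold changes, given throughout as CCl4 minus Control, ran from -0.32 (Rpl3l) to 0.21 (Rpl39), with a median standard error of 0.0991. For 84 of the 86 genes the 95% interval of the fold lay within 1.5-fold in either direction. These intervals hold for the deposited scaling and leave out the shift between scalings. The added 1 RPKM also narrows them for low genes such as Rps12l1 (0.862 to 1.23, at a mean of 0.678 RPKM). The exceptions were Rpl37 (0.551 to 1.21) and Rpl3l (0.558 to 1.15), and each had 1 CCl4 heart far below the rest. Array weights, which give libraries that stand apart less say in the fit, were the setting that changed the call: 13 of the 86 genes were then lower at an adjusted p under 0.05 (limma), against 10.5% of all genes, and 0 were higher. At an unadjusted p under 0.05 there were then 44 of 86, against 32.1% of all genes.

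**Figure D2:**
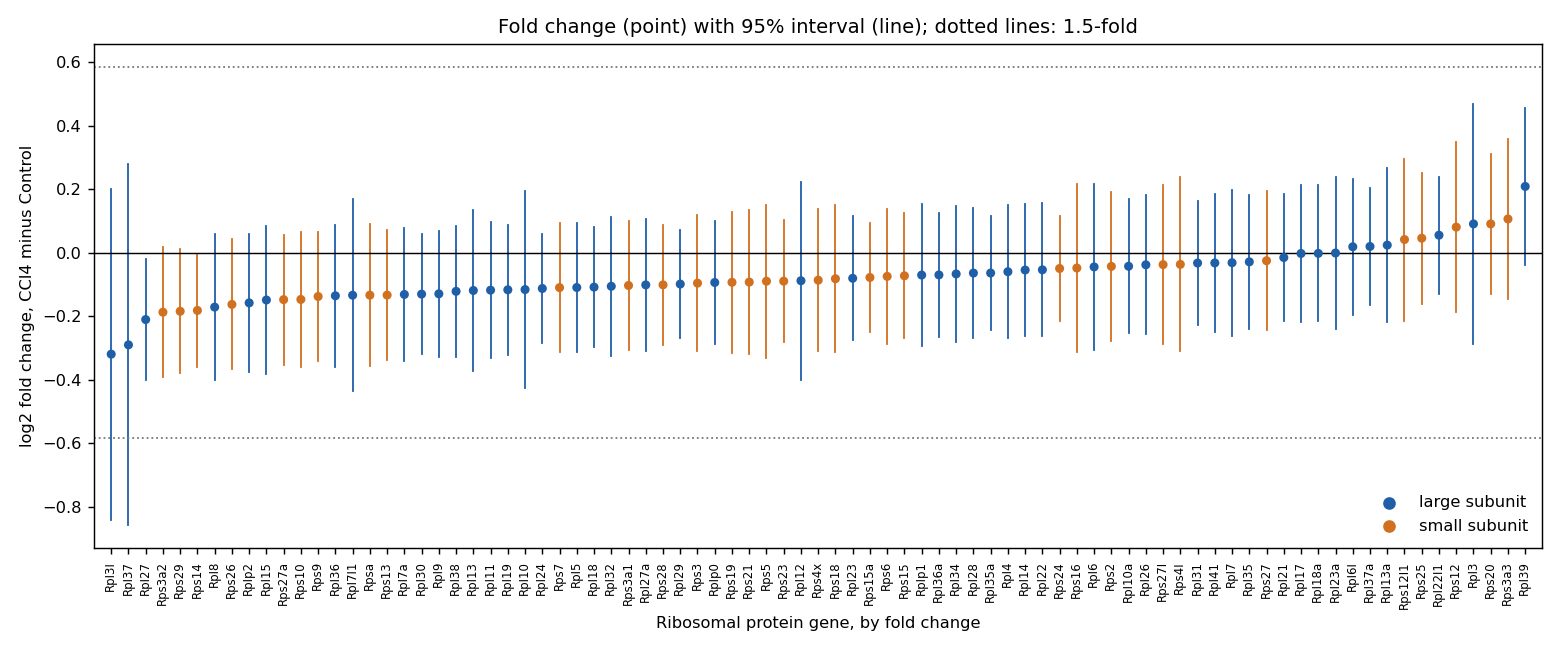
Log2 fold change of 83 of the 86 ribosomal protein genes, CCl4 minus Control (points), with its 95% interval from limma (lines), ordered by size and coloured by subunit, 6 hearts a group. All intervals except those of Rpl3l and Rpl37 stay within the dotted lines at 1.5-fold.

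On the deposited scale 74 of the 86 genes lay lower in CCl4 hearts, as did 65.7% of all genes, but this direction depended on the scaling of the libraries. The median log2 fold change was -0.0846 over these genes and -0.0483 over all genes tested. The large subunit had a median of -0.0758 with 44 of 50 genes lower, and the small subunit -0.0884 with 30 of 36 lower. With median-of-ratios scaling 47 of 86 lay lower (50.1% of all genes), with quantile normalization 42 (52.4%), with a scaling that omits mitochondrial RNA 39 (44.7%), and with TPM scaling 79 (76.4%). Reads of the mitochondrial genome took 32.3% ± 2.95 of the reads in Control and 36.6% ± 4.65 in CCl4 hearts (SD, n = 6 each), and an RPKM is a share of the same total.

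**Figure D3:**
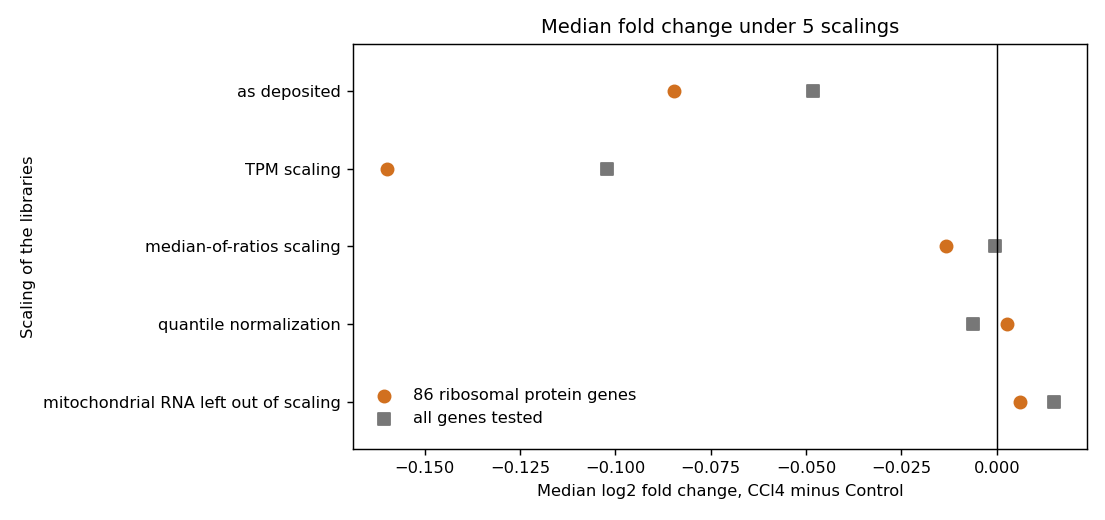
Median log2 fold change, CCl4 minus Control, of the 86 ribosomal protein genes (circles) and of all genes tested (squares) under 5 scalings of the same libraries. The circles run from -0.16 with TPM scaling to 0.006 with mitochondrial RNA left out, and the squares shift with them.

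Among single genes, Rpl27 and Rps14 had the smallest unadjusted p-values. The genes of this paragraph were chosen by smallest p, so the way their hearts separate adds no support. Rpl27, a large subunit protein, was at 67.05, 74.6, 72.1, 87.2, 75.6 and 67.2 RPKM in Control replicates 1 to 6 and at 71.65, 57.3, 68.3, 59.6, 60.9 and 64.5 RPKM in CCl4 replicates 1 to 6. CCl4 replicates 1 and 3 lay within the Control range and the other 4 CCl4 hearts below every Control heart. The log2 fold change was -0.21 (SE 0.0893, unadjusted p = 0.0336, adjusted p = 0.432, limma). Rps14, a small subunit protein whose reduced dosage underlies a form of myelodysplastic anaemia, was at 45.65, 47.4, 45.8, 48.2, 42.0 and 43.3 RPKM in Control and at 38.2, 34.7, 45.2, 39.96, 37.8 and 44.1 RPKM in CCl4 hearts. CCl4 replicates 3 and 6 fell within the Control range and the other 4 below it, for a log2 fold change of -0.18 (SE 0.0828, adjusted p = 0.471, limma). Rps29, Rps3a2 and Rps26 were next, with log2 fold changes of -0.18, -0.19 and -0.16 and adjusted p-values of 0.508 to 0.584 (limma), and all 3 were lower under each of the 5 scalings. Rpl39, which lies at the exit tunnel of the large subunit, had the highest fold change: 13.3 to 16.1 RPKM in the Control group and 13.5 to 23.9 in the CCl4 group, 0.21 on the log2 scale (SE 0.115, adjusted p = 0.557, limma). The highest value was again CCl4 replicate 3, and without it the log2 fold change was 0.12. Rps3a3, Rps20, Rps12, Rpl22l1 and Rpl3 also had means on the higher side, with log2 fold changes of 0.11, 0.09, 0.08, 0.05 and 0.09. For Rps12 and Rpl3 that side rested on CCl4 replicate 3, without which they were at -0.02 and -0.04. Without the same heart Rps20 was at 0.0301 and Rpl22l1 at 0.00299, and Rps3a3 was at 0.0407 without Control replicate 2.

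Several of these genes have a role beyond the subunit they build. Rps6, the substrate of S6 kinase downstream of mTORC1, had a lowest, median and highest RPKM of 230, 251 and 268 in Control hearts and 202, 229 and 305 in CCl4 hearts. Rplp0, which anchors the stalk that recruits elongation factors and is often used as a reference gene, had 70.6, 77.5 and 88.5 RPKM in Control and 62.0, 72.8 and 83.1 RPKM in CCl4 hearts. Rpl5 and Rpl11, which together bind the p53 inhibitor MDM2 when assembly fails, had medians of 233 and 47.5 RPKM in Control and 223 and 42.5 RPKM in CCl4 hearts. Rpl38, a protein known from the axial skeleton of mutant mice, had medians of 93.6 and 84.5 RPKM. In each of these 5 genes the CCl4 range contained or overlapped the Control range, and their adjusted p-values were 0.702 to 0.844 (limma).

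On the deposited scale, differences between hearts of one group were larger than those between the groups, and most of these genes shared them. The mean of log2(RPKM + 1) over the 86 genes was 5.77, 5.80, 5.78, 5.88, 5.78 and 5.67 in Control replicates 1 to 6 and 5.77, 5.48, 5.95, 5.63, 5.63 and 5.77 in CCl4 replicates 1 to 6. The CCl4 group held both the lowest heart, replicate 2, and the highest, replicate 3. CCl4 replicate 3 had the highest value of all 12 hearts in 50 of the 86 genes and CCl4 replicate 2 the lowest in 59. The group means were 5.78 ± 0.0676 and 5.71 ± 0.162 (SD, n = 6 each), and leaving out any 1 heart moved the difference of -0.0753 to between -0.124 and -0.03. The difference turned with the scaling: it was -0.00469 with median-of-ratios scaling, 0.0094 with quantile normalization, 0.0151 with mitochondrial RNA left out and -0.149 with TPM scaling. These genes took 1.77% ± 0.0650 of all reads in Control hearts and 1.70% ± 0.174 in CCl4 hearts. The large and small subunits moved together: the large subunit's mean exceeded the small subunit's by 0.762 ± 0.0210 in Control and 0.759 ± 0.0228 in CCl4 hearts on the log2 scale. Over the 12 hearts, the correlation of each gene with the mean of all the others had a median r of 0.814. In all, 50 genes reached 0.8 and 3 were negative (Rpl3l at -0.439, Rps3a3 and Rps4l). These correlations are for the deposited scale, where the scaling of a library moves all its genes at once. No value over all genes stands beside them, so they do not show a trait particular to these genes.

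**Figure D4:**
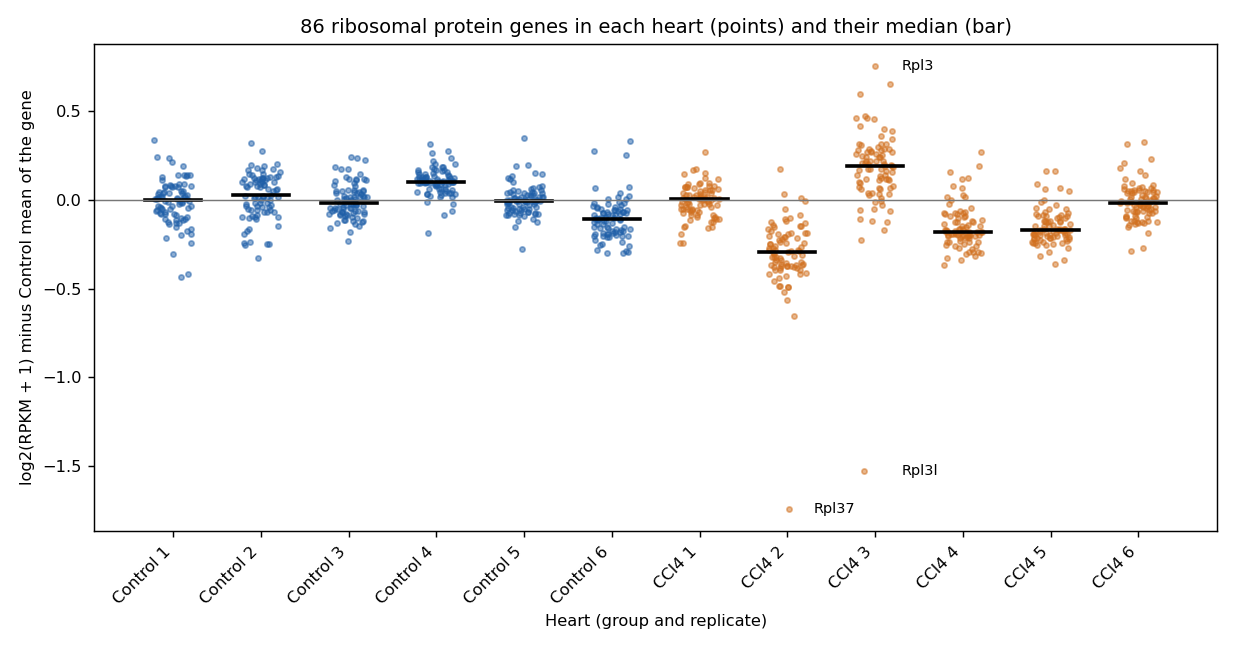
Log2(RPKM + 1) of the 86 ribosomal protein genes in each heart, minus the mean of that gene over Control hearts (points), with the median of each heart (bars), Control in blue and CCl4 in orange. CCl4 replicate 2 lies lowest with a median of -0.295 and CCl4 replicate 3 highest with 0.191, and Rpl37 in the former and Rpl3l in the latter lie far below the other genes.

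Which heart was highest also depended on the scaling. CCl4 replicate 2 had the largest share of mitochondrial reads, 43.7%, and was lowest in 81 of 86 genes with TPM scaling but in 4 with median-of-ratios scaling and 16 with mitochondrial RNA left out. CCl4 replicate 3, at 34.0% mitochondrial reads, was highest in 38 genes with TPM scaling and in 46 with mitochondrial RNA left out, but in 6 with median-of-ratios scaling, where CCl4 replicate 1 was highest in 64.

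Rpl37, a zinc-binding protein of the large subunit, departed from its subunit in a single heart. It was at 66.7, 68.8, 78.8, 76.3, 80.8 and 67.5 RPKM in Control replicates 1 to 6 and at 76.6, 21.0, 87.3, 64.9, 68.1 and 69.8 RPKM in CCl4 replicates 1 to 6. The value of CCl4 replicate 2 was below that of every other heart, and the other CCl4 hearts lay around the Control range. The log2 fold change of -0.29 (SE 0.265, adjusted p = 0.75, limma) became 0.0003 without that heart.

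Rpl3l and Rpl3 were inversely related over the 12 hearts, and within the CCl4 hearts, while in the Control hearts the relation did not pass the test. Rpl3l was at 71.3, 110.6, 96.4, 119.4, 95.5 and 89.3 RPKM in Control replicates 1 to 6 and at 103.9, 108.1, 32.5, 83.4, 83.1 and 79.2 RPKM in CCl4 replicates 1 to 6. Rpl3 was at 80.8, 59.4, 66.3, 62.8, 61.0 and 55.2 RPKM in the same Control hearts and at 53.7, 45.2, 108.4, 69.6, 67.0 and 80.4 RPKM in the CCl4 hearts. Rpl3l was the higher of the pair in 5 Control hearts and 4 CCl4 hearts, and Rpl3 was the higher in Control replicate 1 and CCl4 replicates 3 and 6. On the deposited scale Rpl3l made up 59.9% ± 6.82 of their sum in Control hearts and 53.2% ± 16.7 in CCl4 hearts (SD, n = 6 each). That share ran from 46.9% to 65.5% in Control and from 23.0% (replicate 3) to 70.5% (replicate 2) in CCl4 hearts, and it was 59.2% ± 8.69 in the CCl4 group without replicate 3. The sum of both genes was 161 ± 13.5 RPKM in the Control group and 152 ± 6.60 in the CCl4 group. The exon length of Rpl3 is 2.35 times its principal transcript and that of Rpl3l 1.19 times. The order of the 2 genes, the share of Rpl3l and the sum of both therefore depend on the length used. Divided by the principal transcript, the means over 12 hearts were 159 for Rpl3 and 107 for Rpl3l.

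**Figure D5:**
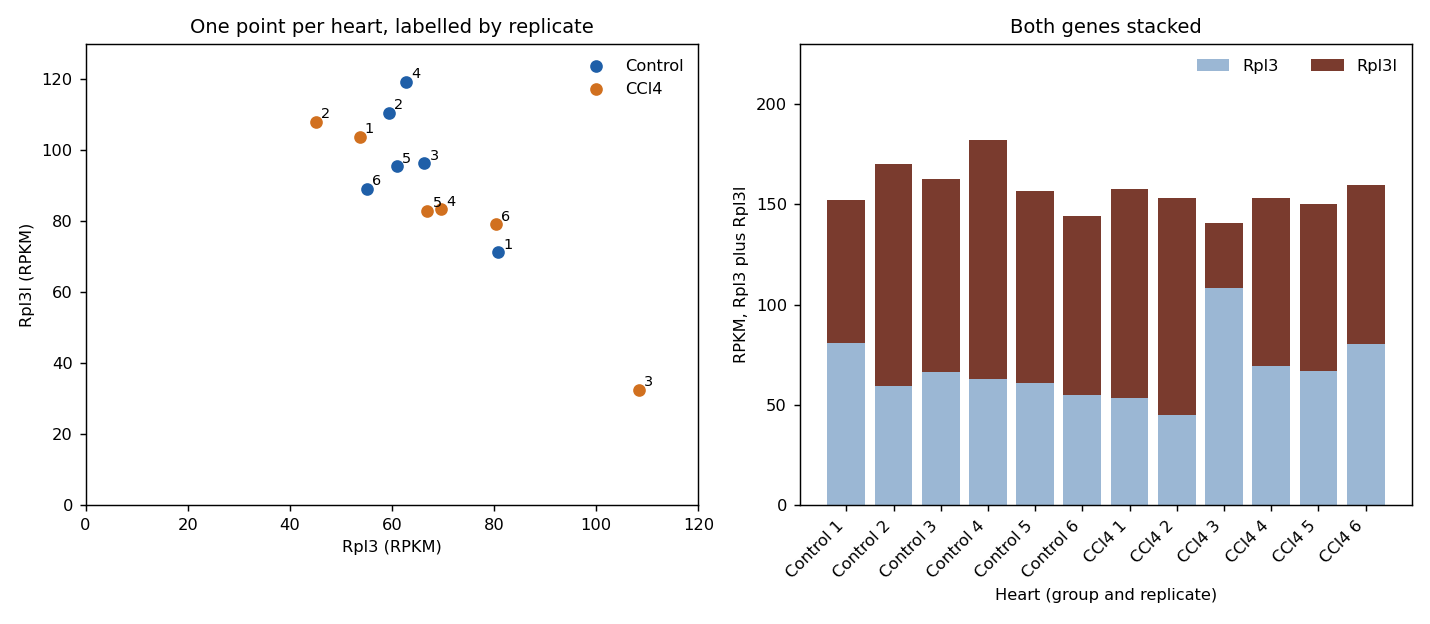
Left, RPKM of Rpl3l against Rpl3 in each heart, Control in blue and CCl4 in orange, numbered by replicate; right, the same values stacked. Among CCl4 hearts those with more Rpl3 mostly have less Rpl3l, and among Control hearts replicate 4 has the most Rpl3l without the least Rpl3. On the deposited scale the sum lies between 141 and 182 RPKM, a range that depends on the exon lengths used. CCl4 replicate 3 stands apart at 108.4 RPKM of Rpl3 and 32.5 of Rpl3l.

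The log2 ratio of Rpl3l to Rpl3, taken on RPKM + 1 within each library, was 0.579 ± 0.399 in Control and 0.169 ± 1.03 in CCl4 hearts (SD, n = 6 each). The difference of -0.410 did not exceed the spread (exact two-sided permutation test over 924 splits, p = 0.455, adjusted over 4 pairs 0.684, smallest possible p 0.00216), and 4 of 6 CCl4 hearts lay below the Control median. Leaving out any 1 heart gave differences from -0.625 to -0.0347. Across the 12 hearts the 2 genes had Pearson's r of -0.850 (permutation p = 0.00045, adjusted over 3 relations 0.00135) and Spearman's rho of -0.790 (permutation p = 0.00356, adjusted 0.0107). Without CCl4 replicates 2 and 3, the farthest from the median of Rpl3, r was -0.710 (permutation p = 0.0234) and rho -0.733. Within the Control hearts r was -0.618 (exact permutation p = 0.194) and rho -0.143, and within the CCl4 hearts r was -0.905 (exact permutation p = 0.00278, adjusted 0.00417) and rho -0.943 (exact permutation p = 0.0167). The relation thus passed the test in the CCl4 hearts and not in the Control hearts, and the difference between the groups was not tested.

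The ratio was lowest in CCl4 replicate 3, then in Control replicate 1, and the marker genes of these hearts are given here. CCl4 replicate 3 had the lowest sum of the 8 cardiomyocyte markers and the highest of fibroblast and leukocyte markers, as given above. Its Col1a1 was at 92.8 RPKM against 7.53 to 45.8 in the other CCl4 hearts. Control replicate 1, with the lowest ratio of its group (-0.18), had the highest sums of atrial (15078 RPKM) and fibroblast markers (239 RPKM) among Control hearts but the lowest sum of leukocyte markers (42.6 RPKM). Markers of skeletal muscle, which also expresses Rpl3l, summed to 5.28 to 18.1 RPKM over the 12 hearts, highest in Control replicate 1, with Myh4 and Myh1 at or below 0.103 RPKM. The atrial sum was 9642 RPKM in CCl4 replicate 3. It was 11754 RPKM in CCl4 replicate 4, where the ratio was 0.257, within the Control range. CCl4 replicate 5, at a ratio of 0.307, had 283 RPKM of fibroblast and 91.2 RPKM of leukocyte markers. CCl4 replicate 6, at a ratio of -0.0213, had 348 RPKM of fibroblast and 121 RPKM of leukocyte markers. The part of cell makeup in the ratio was not tested.

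Eef1a2, the elongation factor isoform of muscle and neurons, is given beside this ratio because of its values, so it is no independent evidence for it. It made up 46.9% ± 7.33 of its sum with Eef1a1 in Control hearts and 41.6% ± 11.3 in CCl4 hearts (SD, n = 6 each). The lowest shares were 20.1% in CCl4 replicate 3 and 33.3% in Control replicate 1. In the latter Eef1a2 was at 137 RPKM, as it was in Control replicate 6, and Eef1a1 was the highest of its group at 274 RPKM.

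In the other paralogue pairs the groups overlapped as well. Rpl22l1, which can stand in for Rpl22, was at 1.15 to 1.65 RPKM in the Control group and 1.11 to 1.90 in the CCl4 group, and Rpl22 at 55.9 to 65.8 and 50.1 to 74.3 RPKM. Their log2 ratio, also on RPKM + 1, was 0.109 higher in CCl4 hearts (exact permutation p = 0.102, adjusted over 4 pairs 0.407), and 0.142 higher with a pseudocount of 0.1. Rps27l, a p53 target related to Rps27, was at 15.0 to 18.6 and 12.02 to 20.7 RPKM, and its log2 ratio to Rps27 differed by -0.0123 (exact permutation p = 0.870). Rpl7l1, a relative of Rpl7 that acts in ribosome assembly, had a log2 ratio to Rpl7 of -2.77 ± 0.341 in Control and -2.87 ± 0.0479 in CCl4 hearts, a difference of -0.102 (exact permutation p = 0.513). Its Control hearts ran from -3.35 to -2.38 while the CCl4 hearts lay between -2.92 and -2.80. Of 6 listed pairs 4 could be tested, since the partners Rpl39l and Rpl10l were not among the 86 genes.

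No gene on the lists of ribosome assembly, transcription of ribosomal RNA, chaperones and translation passed an adjusted p of 0.05 (limma), as was true of all genes tested. With array weights the 9 genes given below with a log2 fold change did pass, at adjusted p-values of 0.00768 (Mycn) to 0.0454 (Eef1d), in a fit that called 10.5% of all genes lower. The counts of genes lying lower are to be read against 65.7% of all genes on the deposited scale, 50.1% with median-of-ratios scaling, 44.7% with mitochondrial RNA left out and 76.4% with TPM scaling, and those lower at an unadjusted p under 0.05 against 8.58%. Of 40 ribosome assembly factors 35 lay lower (29 with median-of-ratios scaling and 25 with mitochondrial RNA left out), with 5 lower and 0 higher at an unadjusted p under 0.05. These included Nop2, a nucleolar methyltransferase (6.64 ± 0.977 and 5.22 ± 0.920 RPKM, log2 fold change -0.30), Ebna1bp2 (-0.20) and Rrp9 (-0.22), a U3 snoRNP protein. They had adjusted p-values of 0.404 to 0.438 (limma). For each, no CCl4 heart exceeded the median of Control hearts (0 of 6), which adds no support because they were chosen by smallest p. Of 13 RNA polymerase I genes 11 lay lower (7 with mitochondrial RNA left out) and none passed an unadjusted p of 0.05. Of 7 dedicated chaperones 6 lay lower (3 with mitochondrial RNA left out); Grwd1 had the smallest p (2.88 ± 0.517 and 2.18 ± 0.451 RPKM, log2 fold change -0.29, adjusted p = 0.422, limma).

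Of 29 initiation factors 24 lay lower (13 with mitochondrial RNA left out), 2 of them at an unadjusted p under 0.05. These were the eIF3 subunits Eif3m (12.5 ± 0.888 and 11.01 ± 0.448 RPKM, -0.17 on the log2 scale) and Eif3i (-0.17). Of 9 elongation genes 6 lay lower under each scaling except TPM, where 8 did, and Eef1d had the smallest p (34.6 ± 3.56 and 30.2 ± 2.05 RPKM, log2 fold change -0.19, adjusted p = 0.470, limma). Of 19 genes that control TOP messages, the mTORC1 and Myc arms included, 8 lay higher and 11 lower (3 and 16 with TPM scaling). Mycn, a Myc family factor that drives ribosome genes, was at 2.15 ± 0.852 and 1.01 ± 0.438 RPKM (log2 fold change -0.61, adjusted p = 0.363, limma). Control replicate 1 was at 0.479 RPKM, within the CCl4 range, and the other Control hearts at 2.05 to 2.76 RPKM. Without Control replicate 1 the adjusted p of Mycn was 0.0369 (limma), in a fit that called 25 genes lower and 6 higher over all genes. Leaving out the heart that lay against the difference adds no support. Eif4ebp2, which holds back cap-dependent initiation, was at 1.14 ± 0.251 and 0.746 ± 0.273 RPKM (-0.30, adjusted p = 0.388, limma). In both, no CCl4 heart exceeded the median of Control hearts (0 of 6), which adds no support because both were chosen by smallest p. Of 12 tested genes of ribosome stress and p53 11 lay lower (9 with mitochondrial RNA left out), and none passed an unadjusted p of 0.05. Of the ribosomal protein genes that the symbol rule does not reach, Fau was at 174 ± 21.9 and 179 ± 29.9 RPKM, Rack1 at 12.5 ± 0.783 and 11.9 ± 1.71 RPKM, and Rpl36al at 52.2 ± 7.83 and 44.3 ± 5.41 RPKM in Control and CCl4 hearts, with adjusted p-values of 0.513 to 0.945 (limma).

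Many ribosomal protein genes carry small nucleolar RNAs (snoRNAs), guides of ribosomal RNA modification, in their introns. The table held 57 of them inside 30 of the 86 genes. The 37 that reached the level for testing ran from 0.581 to 17.1 RPKM; 12 lay higher and 25 lower (65.7% of all genes were lower), with a median log2 fold change of -0.219. At an unadjusted p under 0.05 there were 4, where 10.2% of all genes passed, and 0 after adjustment (smallest adjusted p 0.299, limma). Libraries made from polyadenylated RNA hold few of these short RNAs, so their low values need not follow their level in the heart. Among these 4 was Snord72 of Rpl37, named after its values were seen, at 0.237 ± 0.217 RPKM in the Control group and 0.924 ± 0.587 in the CCl4 group. It reached the level for testing through the CCl4 hearts, since among Control hearts only replicate 4, at 0.547 RPKM, was above 0.5. For a gene of 81 bases such values stand for few reads, so no difference between the groups or relation to Rpl37 is read from them. It was at 1.24 RPKM in CCl4 replicate 2, where Rpl37 was lowest, and highest at 1.72 RPKM in CCl4 replicate 6, where Rpl37 was at 69.8 RPKM.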

How the data were processed

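Heart tissue of 6 Control and 6 CCl4 mice was profiled by RNA sequencing. TRIzol extraction and a stranded mRNA kit were used, per the labels' protocols. The submitters' processing notes name Trimmomatic 0.36, Subread 1.5.1 with its featureCounts, and the build GRCm38; aligner, annotation release and strand setting are not given in the sources used here. All values deposited by the authors are RPKM, which is not a count; RPKM times exon length (GENCODE M21, 30270 of 31722 symbols matched) gave relative depths of 41606100 ± 11407900 steps in Control and 50571300 ± 7619190 in CCl4 libraries, with 92.6% to 93.9% of low values within 0.05 of a whole step.

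Groups came from the sample titles. Genes at 0.5 RPKM in at least 6 libraries were fitted on log2(RPKM + 1) with limma 3.58.1 (trend, no covariate) in R 4.3.3 over all 12 libraries. The Benjamini-Hochberg adjusted p was taken over all genes tested. A fold on this scale understates the change of low genes. P-values measure the spread between these libraries, 1 per mouse by the design text. Paralogue ratios were compared by an exact two-sided permutation test and correlations by exact permutation (6 hearts) or 100000 permutations (12 hearts). Percent of reads came from the recovered steps. The limma fit was tested on simulated data.

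The members, marker and pathway lists were chosen with earlier results of these data known. The text names 5 genes lower and 6 higher by smallest p, the paralogue pairs, genes of known role, and the genes of each pathway list with the smallest p; a few genes are in the counts but not reported here by name. Alternatives were another pseudocount (0.1), filter, scaling, weighting, test, voom on recovered steps, a replicate block and each heart left out. Tables used Python 3.11.15 with pandas 2.3.3, numpy 2.4.6 and scipy 1.17.1, plots matplotlib 3.10.9 and alignment Biopython 1.88.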

Additional observations from a re-analysis of the deposited data

Results flagged for a closer look

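In groups of 6 hearts, a value was marked when its gap to the nearest other heart exceeded Dixon's 95% critical value as a share of the group's range. Among the 172 gene and group combinations of the 86 ribosomal protein genes, 18 were marked, where chance marks about 1 in 20, or 8.6, and the genes are not independent of each other. CCl4 replicate 3 was the highest of its group in Rps12 at 184.8 RPKM, Rps23 at 393.3 RPKM, Rpl17 at 417.3 RPKM, Rps6 at 305.5 RPKM, Rps16 at 30.1 RPKM and Rpl4 at 299.3 RPKM. This heart also had the lowest cardiomyocyte and the highest fibroblast marker sums given above, whose part was not tested. CCl4 replicate 2 was the lowest in Rpl37 at 21.0 RPKM, and CCl4 replicate 1 the highest in Rpl36 at 289.5 RPKM. Control replicate 4 was the highest of its group in Rpl23 at 167.2 RPKM, Rps7 at 155.7 RPKM and Rpl29 at 45.2 RPKM. Control replicate 6 was the lowest in Rps18 at 16.7 RPKM, Rps20 at 10.5 RPKM, Rps9 at 31.4 RPKM and Rpl27a at 26.9 RPKM. It was the shallowest library and had the largest share of mitochondrial reads in its group (37.8%), and the part of either was not tested. Control replicate 3 was the lowest in Rps24 at 715.5 RPKM.

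The log2 ratio of Rpl3l to Rpl3 in Control replicate 1 was -0.178, below the next Control heart at 0.532. It was marked by the same measure, and that heart had the most atrial marker RNA of its group, whose part was not tested.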

How the results depend on the processing

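Over all genes, array weights called 770 genes higher and 1479 lower (10.5% of genes lower) where the equal-weight fit called 0 and 0, and it called 13 ribosomal protein genes lower, with 44 at an unadjusted p under 0.05 (32.1% of all genes); the cause was not tested. Leaving out 1 heart gave 0 to 7 genes higher and 0 to 40 lower over all genes, with 7 and 40 without CCl4 replicate 1, 6 and 25 without Control replicate 1, 1 higher without CCl4 replicate 4 and 2 lower without CCl4 replicate 6, and no ribosomal protein gene among them. The number of ribosomal protein genes at an unadjusted p under 0.05 was 2, and 1 with voom on recovered steps, 0 to 8 without 1 heart (8 without CCl4 replicate 3, where 14.2% of all genes were lower at that p) and 4 without CCl4 replicates 2 and 3, an alternative chosen after seeing the data. Of the 86 genes, 12 lay higher on the deposited scale, 39 with median-of-ratios scaling, 7 with TPM scaling, 44 with quantile normalization and 47 with mitochondrial RNA left out; without 1 heart it was 6 to 28, with 28 without CCl4 replicate 2, 6 without CCl4 replicate 3 and 20 without CCl4 replicate 4. Many of the 86 genes thus changed sign between scalings. The genes named with a log2 fold change did not change sign between scalings, but some did with array weights or with hearts left out. Rps3a3 was at -0.0411 with array weights and Rps12 at -0.00807 without CCl4 replicates 2 and 3. Without 1 heart, Rps12 ran from -0.0233 (without CCl4 replicate 3) to 0.128, Rpl3 from -0.0426 (without CCl4 replicate 3) to 0.206, and Rpl37 from -0.40 to 0.000302 (without CCl4 replicate 2). The log2 ratio of Rps27l to Rps27 ran from -0.0668 to 0.0391 without 1 heart, with a sign change without Control replicates 5 or 6 or CCl4 replicates 2 or 3 (0.00767, 0.00205, 0.0391 and 0.00513). The ratio of Rpl22l1 to Rpl22 ran from 0.0821 to 0.142 and had an exact permutation p of 0.0390 without CCl4 replicate 6; that of Rpl7l1 to Rpl7 ran from -0.218 to -0.0236, with an exact permutation p of 0.0346 without Control replicate 1.

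The deviations of same-numbered hearts from their group means had correlations of -0.474, 0.232, -0.0239, -0.246, 0.183 and 0.140. Control replicates 2 and 5 correlated best with the CCl4 heart of their own number, and the others did not. The titles do not say whether the numbers pair the hearts, and these mixed correlations cannot decide it. A fit with the replicate number as a block left 0 ribosomal protein genes at an unadjusted p under 0.05. Depth limits Rps12l1 most, whose values stood for 3.996 to 21.99 steps a library; the next lowest member, Rps3a3, had at least 53.96 steps in every heart.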
